A study of Mus musculus with 8 samples.

Results

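Macrophages labelled LysM-DKO (3 libraries) were compared directly with macrophages labelled ABCG1KO (2 libraries), which together make up 5 of the 8 RNA-seq libraries of the series. The libraries were chosen by their labels alone, and the other 3 libraries, from wild-type (WT) macrophages, were used to estimate the spread and to place each difference. All 3 groups are primary mouse macrophages from animals on a normal diet. The genotype tag reads LysM-DKO where the design text writes Epsin-DKO. The letters LysM name the Lyz2 promoter, which is commonly used to drive Cre in myeloid cells. The ABCG1KO group carries a knockout of Abcg1, and the labels do not say whether it was limited to a cell type. The tissue of origin, the age and sex of the mice and whether each library came from a separate animal are not stated, so p-values measure only the spread between these libraries, which may be technical. The title of the series names epsins, lipid metabolism and ABCG1-mediated cholesterol efflux, and the direct comparison asks what sets the 2 knockouts apart in lipid, activation and identity genes.

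ABCG1 is a membrane transporter that passes cholesterol from macrophages to lipoprotein particles, and it works beside ABCA1, which loads lipid-poor apolipoprotein. Both are switched on by the liver X receptors (LXR) when sterols accumulate, while the sterol regulatory factors of the SREBP family switch on cholesterol synthesis and uptake when sterols run short. Epsins, encoded by Epn1, Epn2 and Epn3, are adaptor proteins of clathrin-mediated endocytosis. Macrophages take up modified lipoproteins, store cholesterol esters in droplets, and change their surface receptors and secreted products with their tissue and their state of activation.

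The files held 29567615 to 38747428 counts in genes in ABCG1KO and 38487827 to 41888516 in LysM-DKO. Levels are given as CPM, the field's depth-scaled read count, with library sizes scaled by the trimmed mean of M-values (TMM), and differences as log2 fold changes of LysM-DKO minus ABCG1KO with a standard error (SE). The SE was derived from the test below, as the absolute log2 fold change divided by the square root of its F statistic. It is therefore approximate, most of all for genes near 0 counts in a group. Differences were tested in a single edgeR quasi-likelihood fit of all 8 libraries. A gene counts as called where its p, adjusted over the 13821 genes tested by the Benjamini-Hochberg method, was under 0.05, and "adjusted p" below always means this test. All 8 defining macrophage markers examined (Adgre1, Csf1r, Cd68, Itgam, Mertk, Fcgr1, Spi1 and Aif1) were detected in each of the 5 libraries, at 15.5 CPM or more. The sexes of the samples differed as far as transcripts show: Xist, from the inactive X chromosome, was at 0.0485, 265 and 254 CPM in LysM-DKO 1, 2 and 3 and had no count in ABCG1KO, while the Y-linked Ddx3y was at 81.6, 0.0487 and 0 CPM in LysM-DKO 1, 2 and 3 and 94.8 and 92.6 CPM in ABCG1KO. LysM-DKO 1 is therefore the LysM-DKO library that shares the Y-linked pattern of both ABCG1KO libraries. LysM-DKO 2 and 3 and all WT libraries had the Xist pattern, so in comparisons that rest on them the pattern and the genotype cannot be told apart. The share of reads with several alignments was 6.74% to 6.93% in ABCG1KO and 2.65% to 3.01% in LysM-DKO. The submitters' processing notes name both STAR and TopHat, and whether all libraries were aligned and counted with the same settings is not given in the sources used here, so such a difference and the genotype cannot be told apart. For each gene, the shared sequence below is the share of its 50-base windows that also occur in transcripts of another locus.

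Markers of other cells that the preparations could hold were read before the results. As a baseline, 7.76% of the 13821 genes passed the threshold with more in LysM-DKO and 5.64% with less. Groups without overlap made up 25.6% of genes with more in LysM-DKO and 22.6% with less. The 1 call among 9 or 10 members in the B cell and fibroblast lists is thus near the baseline. The mast cell list of 10 summed to 0.872 to 3.12 CPM in LysM-DKO, 56.0 CPM in ABCG1KO 1 and 13.2 CPM in ABCG1KO 2, and 5 of the 7 members tested were called lower in LysM-DKO (Cpa3, Cma1, Tpsb2, Kit and Hdc). The dendritic cell list summed to 58.2 to 113 CPM in LysM-DKO and 112 to 137 CPM in ABCG1KO, and 2 of the 7 tested were called lower, Siglech and Ccr7. The fibroblast list summed to 735 to 1882 CPM in LysM-DKO, 175 CPM in ABCG1KO 1 and 1301 CPM in ABCG1KO 2, and 1 of the 10 tested, Pdgfrb, was called higher. The endothelial list summed to 63.0 to 88.7 CPM in LysM-DKO and 12.6 CPM in ABCG1KO 1, with ABCG1KO 2 also below every LysM-DKO library, and 2 of 5 were called higher, Kdr and Vwf, while Cdh5, which defines the cell type, stayed at or below 0.684 CPM in all 5 libraries. The B cell list summed to 97.3 to 135 CPM in LysM-DKO and 45.4 to 53.9 CPM in ABCG1KO, and 1 of the 9 tested was called higher, Cd22, an inhibitory lectin with a log2 fold change of 1.52 (SE 0.26, adjusted p 0.00906 by edgeR). Cd22 made up most of these sums, at 133, 108 and 93.4 CPM in LysM-DKO and 27.7 and 50.2 CPM in ABCG1KO. The list as a whole lay the other way, with 7 of the 9 below 0, 5 of them without overlap, and a median log2 fold change of -3.11 (-2.90 with the member at 3 counts or fewer set to its bound). Neutrophil, T and NK cell, eosinophil and mesothelial lists had 0 members called, and Ncr1, Cd8b1, Retnlg, Stfa2l1 and Ear6 had no count in any library. The part of these cells in the results was not tested, and in bulk RNA more cells of a type and more RNA per cell cannot be told apart.

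Abcg1, the gene knocked out in ABCG1KO, checks the labels. Abcg1 (chr17:31057675-31117988 on the plus strand of GRCm38) was at 524, 306 and 208 CPM in LysM-DKO and 60.4 and 73.4 CPM in ABCG1KO. Every ABCG1KO library lay below every LysM-DKO library, and the log2 fold change of 2.37 (SE 0.37, adjusted p 0.00644 by edgeR) is a 5.17-fold higher level in LysM-DKO. In WT it was at 405, 404 and 345 CPM, so the LysM-DKO libraries spread on both sides of WT. Abcg1 transcript thus remained in ABCG1KO at 19.3% of the LysM-DKO level; counts are summed over the whole gene, and an exon that was removed cannot be seen. Abcg1 lost its call without ABCG1KO 1 (log2 fold change 2.23). Abcg1 kept its call with LysM-DKO 1 alone and with the sex-linked term.

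Epn1 was at 169, 183 and 155 CPM in LysM-DKO and 182 and 155 CPM in ABCG1KO, with overlapping groups and a log2 fold change of 0.00 (SE 0.15, adjusted p 0.999 by edgeR). Epn2 was at 5.67, 13.2 and 6.30 CPM in LysM-DKO and 18.6 and 18.5 CPM in ABCG1KO. Both ABCG1KO libraries were above all LysM-DKO libraries for Epn2, but the log2 fold change of -1.14 (SE 0.40, adjusted p 0.0944 by edgeR) did not pass the threshold. In WT, Epn1 was at 229.7, 203 and 191 CPM and Epn2 at 8.18, 8.86 and 4.97 CPM, and the log2 fold changes of LysM-DKO minus WT were -0.30 for Epn1 and 0.20 for Epn2 (edgeR adjusted p 0.430 and 0.852), neither of them called. Counts per gene cannot show whether an exon of an epsin gene was removed. No library held more than 5 counts of Epn3. Lyz2, which encodes lysozyme of myeloid cells and carries the LysM-Cre insertion in commonly used strains, was at 6177, 8105 and 6266 CPM in LysM-DKO and 14412 and 11237 CPM in ABCG1KO. All LysM-DKO libraries were below both ABCG1KO libraries, and Lyz2 was called lower with a log2 fold change of -0.90 (SE 0.22, adjusted p 0.0336 by edgeR); 15.4% of its sequence is shared with other loci. In WT, Lyz2 was at 13004, 15147 and 15709.5 CPM. Every direction given below rests on the group labels. Lyz2 lost its call without WT 2, LysM-DKO 1 or 3 or ABCG1KO 1 (log2 fold change -0.93 to -0.73). Lyz2 lost its call with LysM-DKO 1 alone and with the sex-linked term.

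Of the 13821 genes tested, 1853 were called (13.4%), 1073 higher in LysM-DKO (7.76%) and 780 lower (5.64%). Scaling by library size alone turned the split to 877 higher and 1018 lower. A total of 1216 of the called genes differed at least 2-fold and 403 at least 8-fold, and 4267 genes had an unadjusted p under 0.05. The libraries of the groups did not overlap in 6657 genes (48.2%). In the same fit, 5 genes were called between LysM-DKO and WT (0.0362%; Hal, Cacna1a, Cdkn1c, Qpct and BC022687, named after their values were seen) and 2216 between ABCG1KO and WT (16%, with 7.21% higher and 8.83% lower in ABCG1KO). The number called was 561 without ABCG1KO 1, 943 without LysM-DKO 1 and 1005 without LysM-DKO 2. With LysM-DKO 1 as the only LysM-DKO library, which compares libraries of the same sex-linked pattern, 559 genes were called, 503 of them among the 1853. A term for the sex-linked pattern left 719 called genes, 644 of them among the 1853. Counts with LysM-DKO 1 alone and with the sex-linked term below come from these fits. All WT libraries had the Xist pattern and both ABCG1KO libraries the Y-linked one, so the term was estimated within LysM-DKO only. With it, the contrast also rests on LysM-DKO 1 against ABCG1KO, so these fits are not separate checks, and a call kept in both rests on that library. Among the 10854 genes whose shared sequence is below 1%, 1233 were called in the fit of all genes (11.4%), and 948 when these genes were fitted alone, 516 of them higher and 432 lower.

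The largest rises in LysM-DKO over ABCG1KO, among called genes whose libraries do not overlap, with a mean of at least 10 CPM over the 5 libraries and under 1% shared sequence, began with Dio2, which encodes the deiodinase that activates thyroid hormone. Dio2 (chr12:90724552-90738438, - strand) was at 149, 205 and 217 CPM in LysM-DKO and 2.10 and 1.20 CPM in ABCG1KO, and the groups were far apart. Its log2 fold change was 6.86 (SE 0.41, adjusted p 4.22e-05 by edgeR). Mgll, the lipase that cleaves monoacylglycerols, was at 492, 203 and 185 CPM in LysM-DKO and 2.07 and 13.7 CPM in ABCG1KO. Both ABCG1KO libraries lay far below every LysM-DKO library, with a log2 fold change of 5.20 (SE 0.88, adjusted p 0.0105 by edgeR). Mfge8, a secreted bridging protein that tethers apoptotic cells to phagocytes, was at 771, 1098 and 2201 CPM in LysM-DKO and 41.9 and 119.7 CPM in ABCG1KO, with a log2 fold change of 4.07 (SE 0.64, adjusted p 0.00719 by edgeR). Itgb3, the integrin subunit of the vitronectin receptor that binds Mfge8 protein, was at 46.5, 112 and 75.97 CPM in LysM-DKO and 3.57 and 6.32 CPM in ABCG1KO, with a log2 fold change of 3.97 (SE 0.58, adjusted p 0.00548 by edgeR). The ABCG1KO libraries were the lowest of all 8 for both genes.

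Kdr, a receptor for vascular endothelial growth factor, was at 24.2, 18.7 and 17.4 CPM in LysM-DKO and 0.909 and 0.566 CPM in ABCG1KO, with a log2 fold change of 4.78 (SE 0.33, adjusted p 8.72e-05 by edgeR). Cd200, a surface ligand that restrains myeloid cells through its receptor, was at 184, 137 and 153 CPM in LysM-DKO and 6.99 and 16.6 CPM in ABCG1KO, with a log2 fold change of 3.74 (SE 0.39, adjusted p 0.000741 by edgeR). For both, WT was also above both ABCG1KO libraries, at 12.99, 14.7 and 18.3 CPM for Kdr and 265, 219 and 303 CPM for Cd200. The remaining rises were in Adra1a (5.96), an adrenergic receptor, Sbk2 (5.03), Mylk (4.16), the myosin light chain kinase, Cdk18 (3.84), Hal (3.81) and Cacna1a (3.64), all as log2 fold changes. Hal, the enzyme that opens histidine breakdown, and Cacna1a, a calcium channel subunit, were the 2 of these 12 genes that were also called against WT in LysM-DKO, with log2 fold changes of 5.61 and 2.15 over WT (edgeR adjusted p 0.0430 and 0.0430). Hal was at 157, 149 and 103 CPM in LysM-DKO and 12.6 and 6.91 CPM in ABCG1KO and at 3.19, 4.31 and 0.932 CPM in WT. Itgb3 lost its call without ABCG1KO 1 (log2 fold change 3.61). Adra1a, Sbk2, Hal, Dio2, Mgll, Kdr, Mylk, Mfge8, Cdk18, Cd200 and Cacna1a kept their calls in each of the 8 fits that left out 1 library. Sbk2 and Hal lost their calls with LysM-DKO 1 alone.

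The largest fall was in Alox15, the lipoxygenase that oxygenates arachidonic and linoleic acid at carbons other than those used by 5-lipoxygenase. Alox15 (chr11:70344152-70352031, - strand) was at 0, 2.36 and 0.250 CPM in LysM-DKO and 884 and 135 CPM in ABCG1KO. All LysM-DKO libraries were near 0 and ABCG1KO 1 stood above ABCG1KO 2, with a log2 fold change of -9.18 (SE 1.57, adjusted p 0.0108 by edgeR). In WT, Alox15 was at 0.909, 1.21 and 0.0776 CPM, so the difference lay in a higher level in ABCG1KO. Hp, the haemoglobin-binding acute-phase protein haptoglobin, was at 1.33, 2.36 and 4.30 CPM in LysM-DKO and 867 and 175 CPM in ABCG1KO, with a log2 fold change of -7.61 (SE 0.84, adjusted p 0.00163 by edgeR). Marco, a scavenger receptor with a collagen-like stalk, was at 0, 4.41 and 19.8 CPM in LysM-DKO and 1308 and 620.4 CPM in ABCG1KO, with a log2 fold change of -6.90 (SE 1.79, adjusted p 0.0433 by edgeR). LysM-DKO 1 had no Marco count and LysM-DKO 3 the most of its group, still far below ABCG1KO. Prg4, a lubricating proteoglycan of serosal surfaces, was at 0.170, 2.24 and 2.52 CPM in LysM-DKO and 499.8 and 60.7 CPM in ABCG1KO, with a log2 fold change of -7.41 (SE 1.24, adjusted p 0.0102 by edgeR).

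The other falls were in Adgre4 (-7.55), an adhesion receptor of the F4/80 family, Ccl24 (-6.84), a chemokine for eosinophils, Mlxipl (-6.59), the glucose-sensing factor ChREBP, Mcemp1 (-6.44), Slpi (-6.36), a protease inhibitor, Cfb (-5.69), complement factor B, Olr1 (-5.22), a receptor for oxidised lipoprotein, and Adgb (-4.89), all as log2 fold changes. Against WT, all 12 of these genes were called higher in ABCG1KO and none was called in LysM-DKO. Both contrasts share the WT libraries. In all 12 falls ABCG1KO 1 was above ABCG1KO 2. In the 12 rises, ABCG1KO 1 was above ABCG1KO 2 in 3. The size of the falls therefore moved with the ABCG1KO library used. Alox15 lost its call without ABCG1KO 1 (log2 fold change -7.29), Marco without WT 1 or 2, LysM-DKO 2 or ABCG1KO 1 or 2 (-7.34 to -6.28) and Prg4 without ABCG1KO 1 (-5.22). Ccl24 lost its call without LysM-DKO 1 or 3 or ABCG1KO 1 (log2 fold change -6.34 to -5.51), Mlxipl without WT 1, LysM-DKO 1 or 3 or ABCG1KO 1 (-6.59 to -5.11) and Mcemp1 without LysM-DKO 2 or ABCG1KO 1 (-6.51 to -4.89). Slpi lost its call without LysM-DKO 2 or ABCG1KO 1 (log2 fold change -6.25 to -4.56), Cfb without ABCG1KO 1 (-4.77) and Olr1 without ABCG1KO 1 (-3.62). Adgb lost its call without LysM-DKO 2 or ABCG1KO 1 (log2 fold change -4.50 to -4.28). Hp and Adgre4 kept their calls in each of the 8 fits that left out 1 library. Prg4, Ccl24, Mlxipl, Mcemp1 and Slpi lost their calls with LysM-DKO 1 alone; Ccl24 and Mlxipl lost their calls with the sex-linked term.

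**Figure D1:**
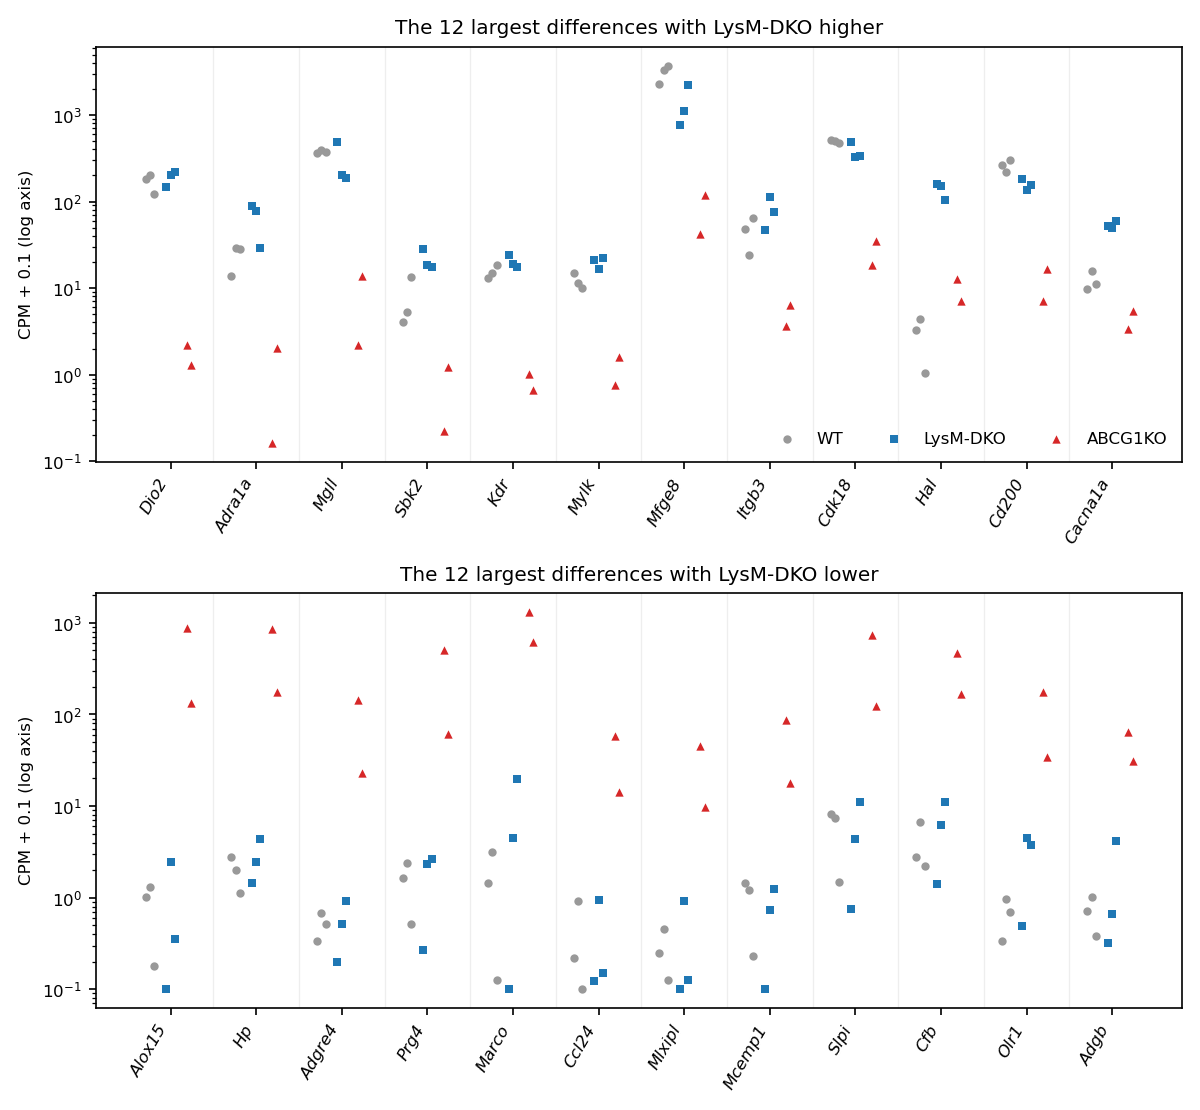
CPM + 0.1 on a log axis in each library for the 12 largest rises (upper panel) and 12 largest falls (lower panel) of LysM-DKO against ABCG1KO, with WT (grey circles), LysM-DKO (blue squares) and ABCG1KO (red triangles), each symbol 1 library. The 24 genes were chosen among those whose LysM-DKO and ABCG1KO libraries do not overlap; in the lower panel ABCG1KO 1, the left triangle, is above ABCG1KO 2 each time.

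Over the 17 gene lists for lipid handling, activation and identity, called members ran in both directions, as the bar chart of called members by list shows. Lists for sterol synthesis, for foam cells and for the interferon response held only members called higher in LysM-DKO. Lists for cholesterol export, uptake, inflammatory effectors, antigen presentation, acute-phase products, resident peritoneal macrophages and cell cycle held only members called lower. The share called among all genes was 7.76% higher and 5.64% lower, and the share with no overlap was 25.6% higher and 22.6% lower. Each count below from the main fit is to be read against these. Other fits called other shares of genes, such as 719 of 13821 with the sex-linked term and 2947 of 17788 with DESeq2. Members counted in another fit are to be read against the genes called in that same fit.

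**Figure D2:**
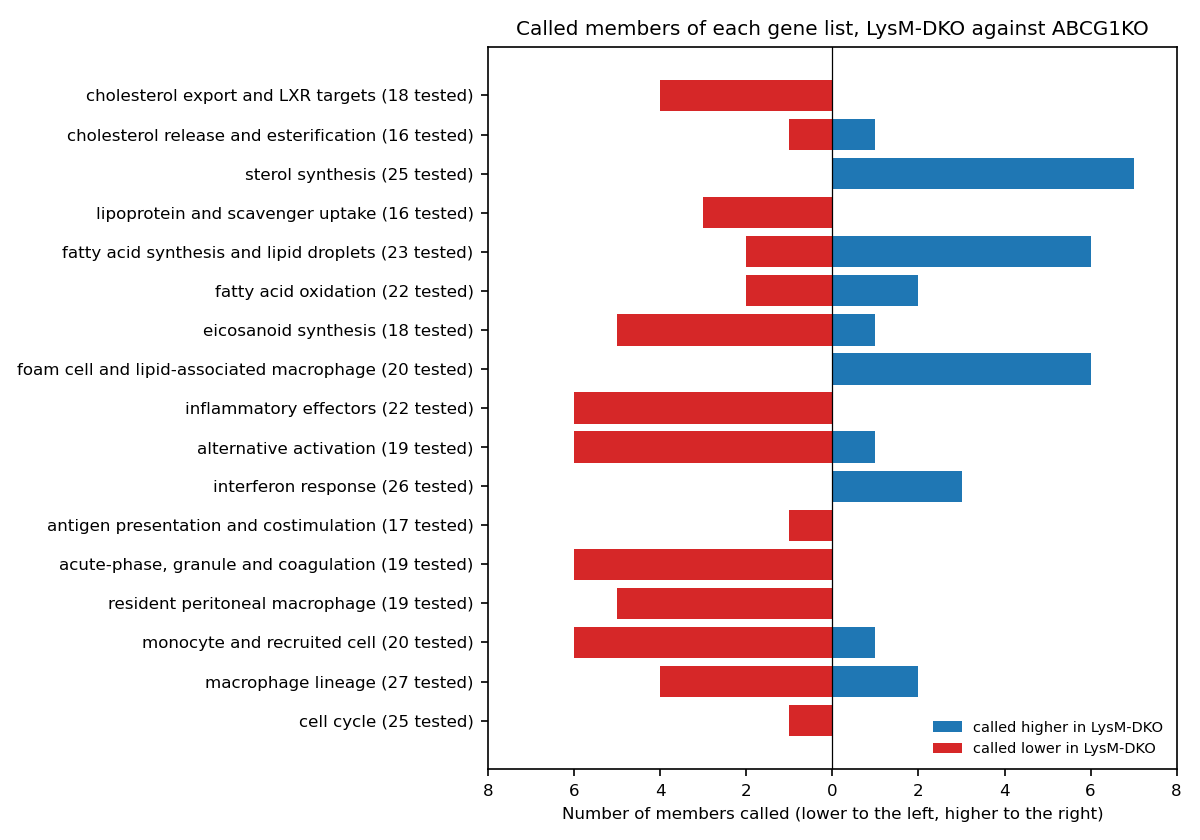
Number of members of each gene list called lower (red, to the left) and higher (blue, to the right) in LysM-DKO against ABCG1KO, with the number tested in parentheses. The longest bar is sterol synthesis, with 7 members called higher; 6 were called higher in the foam cell and in the fatty acid synthesis list, and 4 lists had 6 members called lower.

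The called genes of cholesterol export and LXR targets were lower in LysM-DKO than in ABCG1KO. Abcg1 itself was kept out of the list. Of 18 members tested, 4 were called lower and 0 higher, 14 had a log2 fold change below 0, and the median was -0.51 against 0.03 for all genes. Apoc1, an apolipoprotein gene next to Apoe, was at 0.170, 0.195 and 0 CPM in LysM-DKO and 15.2 and 23.2 CPM in ABCG1KO. It was nearly silent in every LysM-DKO library and present in both ABCG1KO libraries, with a log2 fold change of -7.26 (SE 0.88, adjusted p 0.00177 by edgeR). Pltp, the phospholipid transfer protein, was at 508, 388 and 198 CPM in LysM-DKO and 1063 and 1437 CPM in ABCG1KO, with a log2 fold change of -1.78 (SE 0.36, adjusted p 0.0185 by edgeR). Both ABCG1KO libraries had more than every LysM-DKO library, and the LysM-DKO libraries ranged widely.

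Mylip, a ubiquitin ligase that LXR switches on, was at 72.6, 42.1 and 37.4 CPM in LysM-DKO and 101 and 139.8 CPM in ABCG1KO, with a log2 fold change of -1.24 (SE 0.29, adjusted p 0.0273 by edgeR). Rxra, the partner of LXR on DNA, was at 237, 215 and 202 CPM in LysM-DKO and 304 and 339.6 CPM in ABCG1KO, with a log2 fold change of -0.56 (SE 0.14, adjusted p 0.0392 by edgeR). Abca1, the partner transporter of Abcg1 in cholesterol export, was at 448, 430.4 and 177 CPM in LysM-DKO and 604 and 792 CPM in ABCG1KO. Its groups did not overlap, yet the log2 fold change of -0.99 (SE 0.47, adjusted p 0.199 by edgeR) did not pass the threshold. Apoe, the main apolipoprotein that macrophages secrete, was at 12730.000, 12082 and 1548 CPM in LysM-DKO and 17910.5 and 28572 CPM in ABCG1KO, with LysM-DKO 3 far below the rest and a log2 fold change of -1.40 (SE 0.72, adjusted p 0.225 by edgeR). The LXR genes Nr1h3 and Nr1h2 had log2 fold changes of 0.35 and 0.31, and neither was called. Pltp lost its call without ABCG1KO 1 or 2 (log2 fold change -1.99 to -1.54), Mylip without LysM-DKO 2 or 3 or ABCG1KO 1 or 2 (-1.47 to -0.98) and Rxra without WT 2 or 3, LysM-DKO 1, 2 or 3 or ABCG1KO 1 or 2 (-0.65 to -0.47). Apoc1 kept its call in each of the 8 fits that left out 1 library. Of the cholesterol export list, 1 member was called without ABCG1KO 1 and 2 without LysM-DKO 3 or ABCG1KO 2. For the cholesterol export list, 1 member was called with LysM-DKO 1 alone and 1 with the sex-linked term, and of the 4 called above Apoc1 kept its call in both.

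All called genes of sterol synthesis were higher in LysM-DKO. Of 25 members tested, 7 were called higher and 0 lower, 21 had a log2 fold change above 0, 15 did not overlap with LysM-DKO higher, and the median was 0.70. Of the 7, 3 had under 1% shared sequence. Among all genes with 5% to 20% shared sequence, a range that holds Idi1 and Fdps, 177 were called higher and 45 lower. At the head of the pathway, Hmgcs1, the synthase that makes HMG-CoA, was at 198, 119 and 189 CPM in LysM-DKO and 88.1 and 95.1 CPM in ABCG1KO, with a log2 fold change of 0.88 (SE 0.23, adjusted p 0.0411 by edgeR) and 1.57% shared sequence. Every LysM-DKO library was above both ABCG1KO libraries.

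Among the isoprenoid steps, Idi1 and Fdps had log2 fold changes of 2.16 (SE 0.39, adjusted p 0.0116 by edgeR) and 2.86 (SE 0.49, adjusted p 0.0104 by edgeR), and their shared sequence was 17.7% and 15.5%. Among the later steps, Lss, which closes the rings of lanosterol, was at 27.6, 25.4 and 31.4 CPM in LysM-DKO and 8.47 and 13.4 CPM in ABCG1KO, with a log2 fold change of 1.36 (SE 0.25, adjusted p 0.0127 by edgeR). Msmo1, which removes methyl groups from sterols, was at 113, 75.05 and 113 CPM in LysM-DKO and 44.4 and 43.9 CPM in ABCG1KO, with a log2 fold change of 1.18 (SE 0.26, adjusted p 0.0227 by edgeR). Every LysM-DKO library was above both ABCG1KO libraries in both genes. Dhcr7, which carries out the last step to cholesterol, was at 54.95, 56.6 and 70.6 CPM in LysM-DKO and 22.04 and 31.4 CPM in ABCG1KO, with a log2 fold change of 1.18 (SE 0.22, adjusted p 0.0124 by edgeR) and 1.37% shared sequence. Cyp51, between Lss and Msmo1, was at 42.5, 33.2 and 76.3 CPM in LysM-DKO and 43.9 and 39.9 CPM in ABCG1KO and was not called (log2 fold change 0.27).

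Of the regulators, Scap, the escort that carries SREBP proteins to the Golgi, was called higher, with a log2 fold change of 0.63 (SE 0.16, adjusted p 0.0399 by edgeR). Srebf2, which encodes the sterol-regulating SREBP, had a log2 fold change of 0.45 (edgeR adjusted p 0.102). Insig1, the anchor that holds SREBP back in the endoplasmic reticulum and is itself a target of it, ran the other way, at 66.9, 75.6 and 84.9 CPM in LysM-DKO and 112 and 108 CPM in ABCG1KO (2.17% shared sequence) and a log2 fold change of -0.54 (SE 0.17, adjusted p 0.0746 by edgeR), and did not pass the threshold. Relative to WT, 14 of the 25 genes were called lower in ABCG1KO (8.83% of all genes were) and 0 were called in LysM-DKO; both contrasts share the WT libraries. Lss lost its call without ABCG1KO 1 (log2 fold change 1.06), Msmo1 without LysM-DKO 1 or 3 or ABCG1KO 1 or 2 (1.06 to 1.18) and Dhcr7 without ABCG1KO 1 (0.94). Hmgcs1 lost its call without WT 1, 2 or 3, LysM-DKO 1 or 3 or ABCG1KO 1 or 2 (log2 fold change 0.73 to 0.94), Scap without WT 2 or 3, LysM-DKO 1, 2 or 3 or ABCG1KO 1 (0.44 to 0.70) and Idi1 without ABCG1KO 1 (2.05). Fdps lost its call without ABCG1KO 1 (log2 fold change 3.04). Of the sterol synthesis list, 0 members were called without ABCG1KO 1 and 4 without LysM-DKO 1 or 3. For the sterol synthesis list, 1 member was called with LysM-DKO 1 alone and 0 with the sex-linked term, and none of the 7 called above kept its call in both.

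The promoter of Hmgcs1 shows the kind of sequence through which the SREBP family is known to act, and 60 bases of it are printed with the match to TCACNCCAC in capitals (chr13:119690188-119690247, + strand, RefSeq start on GRCm38.p6).
Hmgcs1: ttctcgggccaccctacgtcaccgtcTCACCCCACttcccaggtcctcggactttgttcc
The match began 137 bases before the start. Promoter sequences from RefSeq were matched by symbol for 10427 of the 13821 genes tested, and the 250 bases before the start were searched on both strands. TCACNCCAC occurred in 1 of the 18 sterol synthesis promoters matched, that of Hmgcs1, and in 0.959% of all matched promoters. It also occurred in 1 of 11 promoters in each of the cholesterol release and resident peritoneal lists. The shorter CCAAT, bound by NF-Y, occurred in 15 of the 18 and in 36.4% of all. It was as frequent in 9 of 11 cholesterol release and 16 of 20 cell cycle promoters, and least frequent in the eicosanoid list (14.3%). Neither motif was thus particular to sterol synthesis. A match is a description of the letters in this window and not a bound site.

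Genes of cholesterol release and esterification were called about as often as all genes. Of 16 members tested, 1 was called higher and 1 lower, near the 7.76% and 5.64% of all genes, and the median was 0.46. Of the 16, 8 did not overlap with LysM-DKO higher and 2 with LysM-DKO lower, against 25.6% and 22.6% of all genes. Stard4, a carrier of cholesterol between membranes, was at 25.03, 25.1 and 21.1 CPM in LysM-DKO and 15.4 and 14.9 CPM in ABCG1KO, with a log2 fold change of 0.65 (SE 0.15, adjusted p 0.0288 by edgeR). Gramd1a, which draws cholesterol from the plasma membrane to the endoplasmic reticulum, was at 38.4, 56.8 and 39.4 CPM in LysM-DKO and 119.7 and 70.3 CPM in ABCG1KO, with a log2 fold change of -1.08 (SE 0.25, adjusted p 0.0267 by edgeR). Lipa, the lysosomal acid lipase, had a log2 fold change of 0.81, Soat1, which esterifies cholesterol for storage, 0.65, and Nceh1, which hydrolyses the stored ester, 0.48, and none of the 3 was called. Both groups were separate without overlap in each of these 3 genes, with LysM-DKO higher. Stard4 lost its call without WT 2, LysM-DKO 1 or 2 or ABCG1KO 1 or 2 (log2 fold change 0.58 to 0.66) and Gramd1a without LysM-DKO 1 or 3 or ABCG1KO 1 (-1.003 to -0.66). Of the cholesterol release list, 0 members were called without LysM-DKO 1 or ABCG1KO 1, 1 without WT 2 or LysM-DKO 2 and 5 without ABCG1KO 2. For the cholesterol release list, 0 members were called with LysM-DKO 1 alone and 0 with the sex-linked term, and none of the 2 called above kept its call in both.

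Receptors for lipoproteins and other scavenged ligands gave 3 members called lower and 0 higher of 16 tested, with a median of 0.00. The called receptors were Marco, described above, Olr1 and Cd163, the receptor for haptoglobin bound to haemoglobin. Olr1 was at 0.388, 4.41 and 3.67 CPM in LysM-DKO and 177 and 34.4 CPM in ABCG1KO, with a log2 fold change of -5.22 (SE 1.01, adjusted p 0.0176 by edgeR). Cd163 was at 0.775, 6.97 and 1.52 CPM in LysM-DKO and 55.7 and 26.4 CPM in ABCG1KO, with a log2 fold change of -3.73 (SE 0.94, adjusted p 0.0403 by edgeR). LysM-DKO 2 was the highest LysM-DKO library for both. Cd36, the main fatty acid and oxidised lipoprotein receptor, was at 3562, 2414 and 3789 CPM in LysM-DKO and 1502 and 2982 CPM in ABCG1KO, with overlapping groups and a log2 fold change of 0.54 (SE 0.35, adjusted p 0.341 by edgeR), and Msr1, the type A scavenger receptor, had a log2 fold change of -0.65 and was not called. Cd163 lost its call without WT 1 or 3, LysM-DKO 1 or 3 or ABCG1KO 1 or 2 (log2 fold change -4.16 to -3.11). Of the uptake list, 0 members were called without ABCG1KO 1 and 1 without WT 1. For the uptake list, 4 members were called with LysM-DKO 1 alone and 3 with the sex-linked term, and of the 3 called above Marco and Olr1 kept their calls in both.

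Lipid droplet and fatty acid synthesis genes gave 6 members called higher and 2 lower in LysM-DKO of 23 tested, with a median of 0.54. On the droplet surface, Plin2 and Plin3 coat stored lipid. Plin2 was at 2172, 1505 and 1589 CPM in LysM-DKO and 715 and 1035 CPM in ABCG1KO, with a log2 fold change of 1.005 (SE 0.24, adjusted p 0.0302 by edgeR) and 2.57% shared sequence. Plin3 was at 259.7, 216 and 188 CPM in LysM-DKO and 78.1 and 95.8 CPM in ABCG1KO, with a log2 fold change of 1.35 (SE 0.18, adjusted p 0.00288 by edgeR) and 1.20% shared sequence. All LysM-DKO libraries exceeded both ABCG1KO libraries for these coat genes. Of the droplet lipases, Mgll rose as described, and Pnpla2, which starts triglyceride breakdown, was at 239.5, 188 and 157 CPM in LysM-DKO and 83.8 and 129 CPM in ABCG1KO without overlap but with an edgeR adjusted p of 0.0520.

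Fabp5, a fatty acid carrier with 5.48% shared sequence, had a log2 fold change of 1.03 (SE 0.22, adjusted p 0.0218 by edgeR), Agpat2, which builds phosphatidic acid, 0.65 (SE 0.15, adjusted p 0.0304 by edgeR), and Fads1, the desaturase of long-chain fatty acids, 0.67 (SE 0.18, adjusted p 0.0435 by edgeR). In the other direction, Elovl5, which lengthens polyunsaturated fatty acids, was at 66.1, 57.1 and 71.4 CPM in LysM-DKO and 138 and 124 CPM in ABCG1KO. Its ABCG1KO libraries were both above every LysM-DKO library, with a log2 fold change of -1.02 (SE 0.16, adjusted p 0.00719 by edgeR). Lpin1, a phosphatidate phosphatase that also acts in the nucleus, was at 43.8, 30.2 and 18.3 CPM in LysM-DKO and 59.9 and 75.2 CPM in ABCG1KO, with a log2 fold change of -1.13 (SE 0.31, adjusted p 0.0493 by edgeR). Fasn, the fatty acid synthase, and Scd1 (shared sequence 4.56%) had log2 fold changes of 0.19 and 0.37 and were not called. Plin2 lost its call without WT 2, LysM-DKO 1 or ABCG1KO 1 (log2 fold change 0.75 to 0.98), Elovl5 without ABCG1KO 1 (-0.94) and Fabp5 without LysM-DKO 1 or ABCG1KO 1 or 2 (0.95 to 1.05). Agpat2 lost its call without LysM-DKO 1 or 2 or ABCG1KO 1 or 2 (log2 fold change 0.54 to 0.70), Fads1 without WT 2 or 3, LysM-DKO 1, 2 or 3 or ABCG1KO 1 (0.43 to 0.67) and Lpin1 without WT 1, 2 or 3, LysM-DKO 2 or 3 or ABCG1KO 1 or 2 (-1.30 to -0.87). Plin3 and Mgll kept their calls in each of the 8 fits that left out 1 library. Of the fatty acid synthesis and droplet list, 2 members were called without ABCG1KO 1, 4 without LysM-DKO 1 and 5 without LysM-DKO 2. For the fatty acid synthesis and droplet list, 2 members were called with LysM-DKO 1 alone and 3 with the sex-linked term, and of the 8 called above Plin3 and Mgll kept their calls in both.

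Of 22 fatty acid oxidation genes, 2 were called higher and 2 lower, and the median was -0.01. Pparg, the nuclear receptor that directs lipid uptake and storage in macrophages, was at 117, 54.3 and 57.5 CPM in LysM-DKO and 25.6 and 28.6 CPM in ABCG1KO, with every LysM-DKO library above ABCG1KO and a log2 fold change of 1.49 (SE 0.35, adjusted p 0.0294 by edgeR). Ppargc1b, a coactivator of mitochondrial genes, was lower, with a log2 fold change of -1.14 (SE 0.31, adjusted p 0.0481 by edgeR). The other called genes share sequence with other loci: Hadhb, the mitochondrial thiolase subunit, had a log2 fold change of 2.73 (SE 0.22, adjusted p 0.000204 by edgeR) and 19.7% shared sequence, while Hadha, which encodes its partner subunit and has 0.0454% shared sequence, had a log2 fold change of 0.01. Slc25a20, the carnitine carrier (6.20% shared), had one of -0.65 (SE 0.14, adjusted p 0.0214 by edgeR). Cpt1a, the entry enzyme of the pathway, was at 196, 139 and 173 CPM in LysM-DKO and 195 and 189 CPM in ABCG1KO and was not called. Pparg lost its call without ABCG1KO 1 or 2 (log2 fold change 1.40 to 1.58), Ppargc1b without WT 2 or 3, LysM-DKO 1, 2 or 3 or ABCG1KO 1 or 2 (-1.27 to -1.02) and Slc25a20 without LysM-DKO 1 or 2 or ABCG1KO 1 (-0.70 to -0.60). Hadhb kept its call in each of the 8 fits that left out 1 library. Of the fatty acid oxidation list, 1 member was called without ABCG1KO 1 and 2 without LysM-DKO 1 or 2 or ABCG1KO 2. For the fatty acid oxidation list, 2 members were called with LysM-DKO 1 alone and 2 with the sex-linked term, and of the 4 called above Hadhb and Pparg kept their calls in both.

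Eicosanoid synthesis genes gave 5 members called lower and 1 higher of 18 tested, with a median of -0.52. In the lipoxygenase branch, Alox5 and Alox5ap fell as Alox15 did. Alox5, which starts leukotriene synthesis, was at 0.630, 6.51 and 1.75 CPM in LysM-DKO and 69.6 and 35.4 CPM in ABCG1KO, with a log2 fold change of -4.15 (SE 0.88, adjusted p 0.0237 by edgeR). Alox5ap, the membrane protein that hands arachidonic acid to 5-lipoxygenase, was at 90.1, 97.8 and 179 CPM in LysM-DKO and 659 and 338 CPM in ABCG1KO, with a log2 fold change of -2.03 (SE 0.38, adjusted p 0.0128 by edgeR). No LysM-DKO library reached the lower ABCG1KO library in either gene. Lta4h, which acts after Alox5 to make leukotriene B4, had a log2 fold change of 0.31 and was not called.

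In the prostaglandin branch, Ptges, the inducible prostaglandin E synthase, was lower, with a log2 fold change of -1.79 (SE 0.46, adjusted p 0.0395 by edgeR). Hpgd, which inactivates prostaglandins, was lower too, by a log2 fold change of -3.63 (SE 0.95, adjusted p 0.0434 by edgeR). Hpgds, the prostaglandin D synthase of haematopoietic cells, was at 274, 193 and 185 CPM in LysM-DKO and 69.6 and 121 CPM in ABCG1KO, with a log2 fold change of 1.19 (SE 0.32, adjusted p 0.0427 by edgeR). The cyclooxygenases Ptgs1 and Ptgs2 had overlapping groups, with log2 fold changes of -0.66 and -0.09. Alox5 lost its call without LysM-DKO 3 or ABCG1KO 1 (log2 fold change -3.88 to -3.60), Alox5ap without ABCG1KO 1 (-1.48) and Ptges without WT 1 or 2, LysM-DKO 1, 2 or 3 or ABCG1KO 1 (-1.92 to -0.90). Hpgd lost its call without WT 1, 2 or 3, LysM-DKO 2 or ABCG1KO 1 or 2 (log2 fold change -3.68 to -3.58) and Hpgds without WT 1 or 3, LysM-DKO 1, 2 or 3 or ABCG1KO 1 (0.84 to 1.29). Of the eicosanoid list, 0 members were called without ABCG1KO 1 and 3 without WT 1 or LysM-DKO 3. For the eicosanoid list, 4 members were called with LysM-DKO 1 alone and 4 with the sex-linked term, and of the 6 called above Alox5, Alox15 and Hpgd kept their calls in both. Mast cells also express Alox5, Alox5ap and Hpgds. The summed mast cell markers given above were higher in ABCG1KO, as Alox5 and Alox5ap were, while Hpgds was lower there. The part of mast cells was not tested.

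All called markers of foam cells and lipid-associated macrophages were higher in LysM-DKO. Of 20 members tested, 6 were called higher and 0 lower, 19 had a log2 fold change above 0, and the median was 0.74. Of the 6, 3 had under 1% shared sequence. Gpnmb, a lysosome-associated glycoprotein of lipid-laden macrophages, was at 23218, 17540.5 and 23514 CPM in LysM-DKO and 1607 and 4561 CPM in ABCG1KO. Both ABCG1KO libraries were far below all LysM-DKO libraries, with a log2 fold change of 2.80 (SE 0.45, adjusted p 0.00729 by edgeR). Spp1, the secreted matrix protein osteopontin, was at 1839, 3604 and 2925 CPM in LysM-DKO and 208 and 316 CPM in ABCG1KO, with a log2 fold change of 3.41 (SE 0.55, adjusted p 0.00741 by edgeR). Lgals3, the lectin galectin-3, was at 6277, 3899 and 5504 CPM in LysM-DKO and 1364 and 1929 CPM in ABCG1KO, with a log2 fold change of 1.67 (SE 0.29, adjusted p 0.00908 by edgeR). In WT these genes were at 27963, 24109.5 and 32295, 5236, 4903 and 1799 and 8043, 6288 and 6044 CPM, again above both ABCG1KO libraries. For Gpnmb, every WT library was also above every LysM-DKO library. Relative to WT, the median of the list was -0.51 in LysM-DKO and -1.20 in ABCG1KO. Of the 20 genes, 13 were called lower in ABCG1KO (8.83% of all genes were) and 0 were called in LysM-DKO. Both contrasts share the WT libraries.

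Cd63, a lysosomal tetraspanin, had a log2 fold change of 1.86 (SE 0.31, adjusted p 0.00837 by edgeR) and 11.1% shared sequence, and Fabp5 and Plin2 belong to this list too. Trem2, the lipid-sensing receptor that marks these cells, was at 1031, 878 and 898 CPM in LysM-DKO and 559 and 885 CPM in ABCG1KO, with overlapping groups and a log2 fold change of 0.37 (SE 0.28, adjusted p 0.397 by edgeR). Mmp12, the macrophage elastase (shared sequence 1.04%), was at 3349, 2905 and 5623 CPM in LysM-DKO and 699 and 1891 CPM in ABCG1KO without overlap but with an edgeR adjusted p of 0.0599. Apoe was the only member with a log2 fold change below 0. Spp1 lost its call without ABCG1KO 1 (log2 fold change 3.13), Lgals3 without ABCG1KO 1 (1.43) and Cd63 without ABCG1KO 1 (1.52). Gpnmb kept its call in each of the 8 fits that left out 1 library. Of the foam cell list, 1 member was called without ABCG1KO 1. For the foam cell list, 3 members were called with LysM-DKO 1 alone and 5 with the sex-linked term, and of the 6 called above Gpnmb, Lgals3 and Cd63 kept their calls in both.

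**Figure D3:**
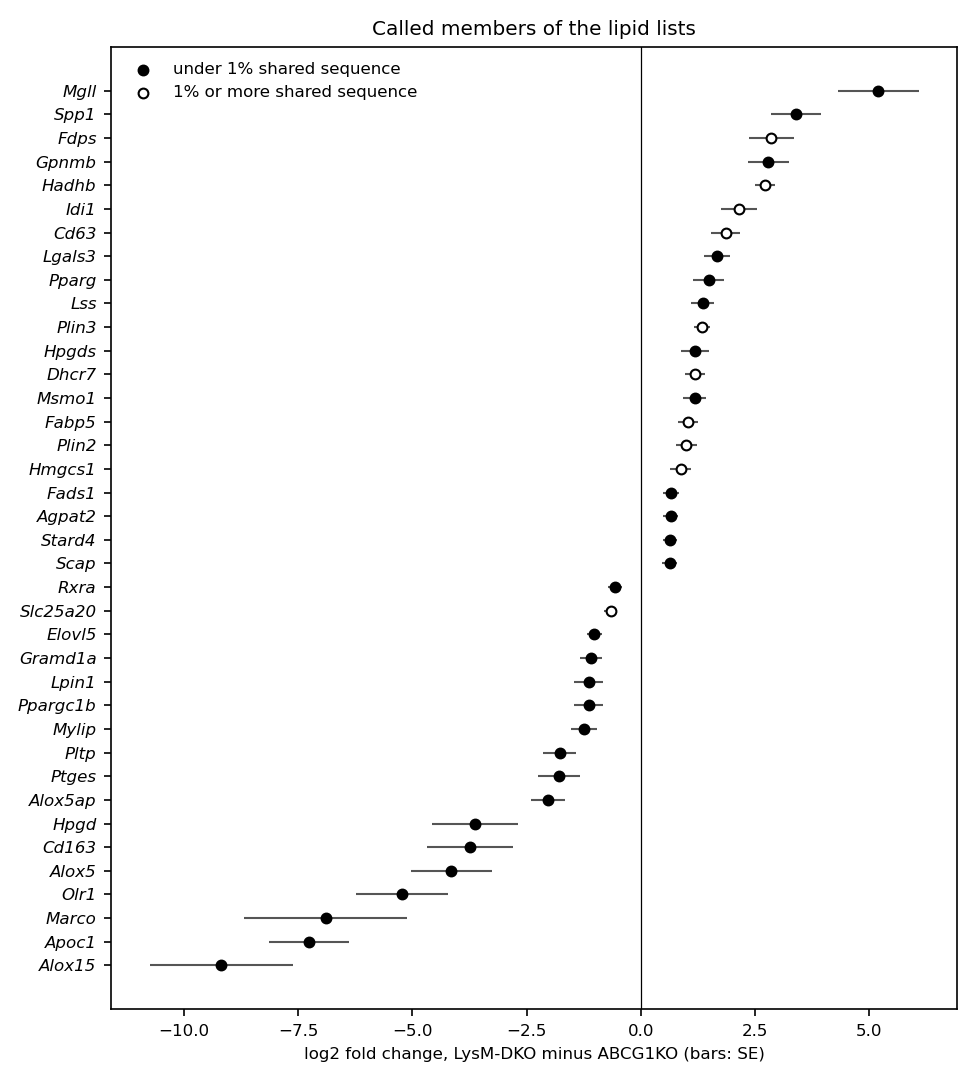
Log2 fold change of LysM-DKO minus ABCG1KO for the 38 called members of the 8 lipid lists, with bars for SE; open circles mark genes with 1% or more shared sequence. Values run from -9.18 for Alox15 to 5.20 for Mgll, and the sterol synthesis and foam cell members all lie to the right of 0.

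Inflammatory effectors were lower in LysM-DKO where they were called. Of 22 members tested, 6 were called lower and 0 higher, and the median was -0.49. Among the receptors, Tlr2, which senses bacterial lipoproteins, was at 42.7, 71.8 and 36.4 CPM in LysM-DKO and 534 and 271 CPM in ABCG1KO. The groups were far apart, with a log2 fold change of -3.0005 (SE 0.35, adjusted p 0.00164 by edgeR). Cd14, the co-receptor that passes lipopolysaccharide to Toll-like receptors, was at 122, 221 and 176 CPM in LysM-DKO and 700.1 and 315 CPM in ABCG1KO, with a log2 fold change of -1.55 (SE 0.40, adjusted p 0.0392 by edgeR). Among the cytokines, Tnf, encoding tumour necrosis factor, was at 4.41, 5.90 and 12.8 CPM in LysM-DKO and 46.9 and 20.1 CPM in ABCG1KO. LysM-DKO 3 was the highest of its group and still below ABCG1KO, with a log2 fold change of -2.12 (SE 0.49, adjusted p 0.0286 by edgeR).

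Nfkbia, the inhibitor of NF-kB that NF-kB itself induces, was at 46.3, 49.7 and 53.5 CPM in LysM-DKO and 258 and 103 CPM in ABCG1KO, with a log2 fold change of -1.85 (SE 0.32, adjusted p 0.0103 by edgeR). Cxcl1, a neutrophil-attracting chemokine, was at 0.824, 0.829 and 3.15 CPM in LysM-DKO and 22.2 and 7.05 CPM in ABCG1KO, with a log2 fold change of -3.19 (SE 0.88, adjusted p 0.0493 by edgeR). Cxcl3, of the same family and with 4.29% shared sequence, was called lower, had at most 3 counts in each LysM-DKO library and was at 7.06 and 1.297 CPM in ABCG1KO. Not all members followed. Il6 was at or below 0.660 CPM in all 5 libraries, Il1b was at 0.509, 1.73 and 0.600 CPM in LysM-DKO and 13.2 and 5.59 CPM in ABCG1KO (edgeR adjusted p 0.0784), and Ccl2 and Ptgs2 had overlapping groups with log2 fold changes of -0.05 and -0.09. Cd14 lost its call without WT 1 or 2, LysM-DKO 1, 2 or 3 or ABCG1KO 1 (log2 fold change -1.78 to -0.88), Tnf without LysM-DKO 1 or 2 or ABCG1KO 1 (-1.98 to -1.39) and Cxcl1 without WT 1 or 2, LysM-DKO 1 or 2 or ABCG1KO 1 (-3.21 to -2.15). Tlr2, Nfkbia and Cxcl3 kept their calls in each of the 8 fits that left out 1 library. Of the inflammatory list, 3 members were called without LysM-DKO 1 or 2 or ABCG1KO 1. For the inflammatory list, 3 members were called with LysM-DKO 1 alone and 2 with the sex-linked term, and of the 6 called above Tlr2 kept its call in both.

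Of the inflammatory promoters matched, 5 of 15 held GGGANTTTC, the kind of sequence NF-kB is known to bind, against 0.844% of all matched promoters. These windows are printed because 3 of the 5, Nfkbia, Cxcl1 and Cxcl3, were called lower; each line gives 60 bases before the RefSeq start (GRCm38.p6), on the strand of the gene, with the match on either strand in capitals (the one farthest from the start where there are several).
Nfkbia (chr12:55492727-55492786, - strand): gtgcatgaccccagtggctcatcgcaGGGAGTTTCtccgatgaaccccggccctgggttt
Cxcl1 (chr5:90891148-90891207, + strand): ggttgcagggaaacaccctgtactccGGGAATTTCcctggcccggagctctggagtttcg
Cxcl2 (chr5:90903776-90903835, + strand): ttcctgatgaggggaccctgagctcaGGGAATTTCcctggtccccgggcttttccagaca
Cxcl3 (chr5:90786002-90786061, + strand): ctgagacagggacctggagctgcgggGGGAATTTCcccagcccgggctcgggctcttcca
Il6 (chr5:30013044-30013103, + strand): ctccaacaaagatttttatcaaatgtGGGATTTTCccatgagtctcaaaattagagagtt
The match began 113 bases before the start in Nfkbia, 71 in Cxcl1, 97 in Cxcl2, 73 in Cxcl3 and 44 in Il6. Cxcl2, with 5.84% shared sequence, was at 0.509, 1.78 and 6.70 CPM in LysM-DKO and 72.1 and 9.81 CPM in ABCG1KO without overlap and had an edgeR adjusted p of 0.0554. The 3 chemokine genes are neighbours on chromosome 5 and related copies, so their promoters are not independent of each other. Tnf, Tlr2 and Cd14 were called without being among the 5.

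Genes of alternative activation, the state linked to interleukin-4, gave more members called lower than higher in LysM-DKO. Of 19 tested, 6 were called lower and 1 higher, and the median was -0.89. Fn1, the matrix protein fibronectin, was at 1341, 2009 and 2074 CPM in LysM-DKO and 7071 and 3524 CPM in ABCG1KO, with a log2 fold change of -1.55 (SE 0.37, adjusted p 0.0312 by edgeR). Ccl22, a chemokine for T cells, was at 0, 0 and 0.150 CPM in LysM-DKO and 5.83 and 2.55 CPM in ABCG1KO, with a log2 fold change of -6.31 (SE 1.33, adjusted p 0.0206 by edgeR). Retnla, a secreted product of alternatively activated macrophages, was called lower with at most 3 counts in each LysM-DKO library and 33.1 and 11.8 CPM in ABCG1KO. ABCG1KO 1 was above ABCG1KO 2 in each of these 3 genes.

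Ear2, a ribonuclease with 41.5% shared sequence, and Ccl24 and Cd163 were the other members called lower. Clec7a, the receptor dectin-1 for fungal glucans, was higher, at 1318, 779.9 and 1021 CPM in LysM-DKO and 631 and 471 CPM in ABCG1KO, with a log2 fold change of 0.92 (SE 0.25, adjusted p 0.0451 by edgeR). The widely used markers Arg1, arginase, and Mrc1, the mannose receptor, were not called: Arg1 was at 0.388, 88.5 and 2.45 CPM in LysM-DKO and 498 and 145 CPM in ABCG1KO and Mrc1 at 180.2, 477 and 199 CPM in LysM-DKO and 154 and 404 CPM in ABCG1KO. LysM-DKO 2 stood far above the other LysM-DKO libraries for Arg1, and Mrc1 overlapped between the groups. Fn1 lost its call without LysM-DKO 1, 2 or 3 or ABCG1KO 1 (log2 fold change -1.66 to -0.98), Ccl22 without ABCG1KO 1 (-5.61) and Clec7a without WT 1, 2 or 3, LysM-DKO 1 or 3 or ABCG1KO 1 or 2 (0.69 to 1.13). Retnla and Ear2 kept their calls in each of the 8 fits that left out 1 library. Of the alternative activation list, 2 members were called without ABCG1KO 1, 3 without LysM-DKO 1 and 4 without LysM-DKO 3. For the alternative activation list, 3 members were called with LysM-DKO 1 alone and 3 with the sex-linked term, and of the 7 called above Ear2 kept its call in both.

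Interferon response genes gave 3 members called higher and 0 lower in LysM-DKO of 26 tested, with a median of 0.71. Oasl2, an antiviral protein of the oligoadenylate synthase family, was at 24.7, 44.1 and 78.7 CPM in LysM-DKO and 13.5 and 8.54 CPM in ABCG1KO, with a log2 fold change of 2.16 (SE 0.57, adjusted p 0.0447 by edgeR). Ddx58, the RNA sensor RIG-I, was at 34.8, 44.9 and 50.5 CPM in LysM-DKO and 20.5 and 21.9 CPM in ABCG1KO, with a log2 fold change of 1.03 (SE 0.27, adjusted p 0.0399 by edgeR). Xaf1, with 1.61% shared sequence, was at 18.6, 29.5 and 49.6 CPM in LysM-DKO and 12.3 and 8.04 CPM in ABCG1KO, with a log2 fold change of 1.68 (SE 0.45, adjusted p 0.0442 by edgeR). LysM-DKO 3 was the highest of the 5 libraries for all 3 genes, and WT 2 lay above it for Oasl2 and Ddx58. The count was 0 with libraries scaled by size only.

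Isg15, a ubiquitin-like product of the response (shared sequence 3.96%), had a log2 fold change of 0.70 and was not called. Sequence of the form GAAANNGAA, the core of the interferon-stimulated response element, occurred in 11 of the 21 promoters of this list that were matched and in 6.45% of all. None of the 11 genes was called, and none of the 3 called members, all matched, was among the 11. Oasl2 lost its call without WT 1 or 3, LysM-DKO 2 or 3 or ABCG1KO 1 or 2 (log2 fold change 1.65 to 2.51), Ddx58 without WT 3, LysM-DKO 2 or 3 or ABCG1KO 1 or 2 (0.91 to 1.09) and Xaf1 without WT 1, 2 or 3, LysM-DKO 2 or 3 or ABCG1KO 1 or 2 (1.25 to 2.01). Of the interferon list, 0 members were called without WT 3, LysM-DKO 2 or 3 or ABCG1KO 1 or 2 and 1 without WT 1. For the interferon list, 0 members were called with LysM-DKO 1 alone and 0 with the sex-linked term, and none of the 3 called above kept its call in both.

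Of 17 antigen presentation genes tested, 1 was called lower in LysM-DKO, a share near the 5.64% of all genes, and 0 higher. A total of 13 did not overlap with LysM-DKO lower, against 22.6% of all genes, and the median was -2.16. H2-Ab1, a chain of the class II molecule I-A, was at 40.03, 250.03 and 151 CPM in LysM-DKO and 1172 and 1174 CPM in ABCG1KO, with a log2 fold change of -2.998 (SE 0.89, adjusted p 0.0640 by edgeR). H2-Eb1, a chain of I-E, was at 24.1, 177 and 105 CPM in LysM-DKO and 1058 and 1091 CPM in ABCG1KO, with a log2 fold change of -3.39 (SE 0.96, adjusted p 0.0559 by edgeR). The ABCG1KO libraries were close together and the LysM-DKO libraries spread widely, with LysM-DKO 1 lowest and LysM-DKO 2 highest.

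Cd74, the invariant chain that guides class II molecules, was at 146, 1010.1 and 566 CPM in LysM-DKO and 2392 and 2752 CPM in ABCG1KO, with a log2 fold change of -2.16 (SE 0.91, adjusted p 0.153 by edgeR). Ciita, the master regulator of class II genes, overlapped between the groups, at 2.57, 22.1 and 3.30 CPM in LysM-DKO and 18.3 and 17.1 CPM in ABCG1KO. Cd86, a costimulatory ligand for T cells, was the called member, at 9.67, 24.6 and 7.62 CPM in LysM-DKO and 150.3 and 82.8 CPM in ABCG1KO, with a log2 fold change of -3.06 (SE 0.64, adjusted p 0.0232 by edgeR). Its relative Cd80 overlapped, with a log2 fold change of -0.08. In WT, H2-Ab1 was at 106, 516 and 101 CPM, below both ABCG1KO libraries. Cd86 lost its call without LysM-DKO 1 or 3 or ABCG1KO 1 (log2 fold change -2.88 to -2.59). Of the antigen presentation list, 0 members were called without LysM-DKO 1 or 3 or ABCG1KO 1, 2 without LysM-DKO 2 and 5 without WT 2. For the antigen presentation list, 1 member was called with LysM-DKO 1 alone and 1 with the sex-linked term, and the member called in all libraries did not keep its call in both. The dendritic cell markers given above, which had 2 members called lower, moved the same way, and their part was not tested.

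All called acute-phase and granule products were lower in LysM-DKO. Of 19 members tested, 6 were called lower and 0 higher, 18 had a log2 fold change below 0, and the median was -3.19. Saa3, the serum amyloid A form made by macrophages, with 4.15% shared sequence, was at 2.59, 43.5 and 45.1 CPM in LysM-DKO and 9953 and 2971 CPM in ABCG1KO, with a log2 fold change of -7.73 (SE 1.57, adjusted p 0.0206 by edgeR). Slpi, an inhibitor of leukocyte proteases, was at 0.654, 4.31 and 10.8 CPM in LysM-DKO and 741 and 123 CPM in ABCG1KO, with a log2 fold change of -6.36 (SE 1.28, adjusted p 0.0201 by edgeR). Cfb, complement factor B of the alternative pathway, was at 1.31, 6.04 and 11.1 CPM in LysM-DKO and 470.3 and 166 CPM in ABCG1KO, with a log2 fold change of -5.69 (SE 0.92, adjusted p 0.00868 by edgeR). LysM-DKO 1 was the lowest library for all 3 and ABCG1KO 1 the highest.

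Wfdc17 was at 26.9, 19.2 and 40.5 CPM in LysM-DKO and 399.96 and 125 CPM in ABCG1KO, with a log2 fold change of -3.19 (SE 0.66, adjusted p 0.0220 by edgeR), and Pglyrp1, a peptidoglycan recognition protein with 2.67% shared sequence, had one of -7.29 (SE 1.38, adjusted p 0.0138 by edgeR). Hp completes the called members. C3, the central complement component, overlapped between the groups, at 186, 311 and 177 CPM in LysM-DKO and 637 and 293 CPM in ABCG1KO, and the neutrophil granule gene Ltf was at or below 0.637 CPM in all 5 libraries. Saa3 lost its call without LysM-DKO 2 or 3 or ABCG1KO 1 (log2 fold change -8.13 to -6.63), Wfdc17 without LysM-DKO 1 or 2 or ABCG1KO 1 (-3.16 to -2.13) and Pglyrp1 without ABCG1KO 1 (-5.87). Of the acute-phase list, 1 member was called without ABCG1KO 1. For the acute-phase list, 2 members were called with LysM-DKO 1 alone and 4 with the sex-linked term, and of the 6 called above Hp and Cfb kept their calls in both.

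Of the acute-phase promoters matched, 6 of 14 held TTGCNNAA, a form that C/EBP factors bind, against 7.58% of all matched promoters. Among the 6, Lcn2, C3, Ltf and Serpinb2 were not called. Hp, Cfb, Wfdc17 and Pglyrp1 were called without being among the 6. The motif also occurred in 20% of macrophage lineage promoters and in 18.2% of resident peritoneal and of cholesterol release promoters. The windows of the 2 called members, Saa3 and Slpi, are printed with that of C3, with the match on either strand in capitals and RefSeq starts on GRCm38.p6.
Saa3 (chr7:46715742-46715801, - strand): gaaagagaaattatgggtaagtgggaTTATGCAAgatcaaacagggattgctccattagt
Slpi (chr2:164356698-164356757, - strand): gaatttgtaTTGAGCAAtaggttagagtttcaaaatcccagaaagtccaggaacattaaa
C3 (chr17:57228148-57228207, - strand): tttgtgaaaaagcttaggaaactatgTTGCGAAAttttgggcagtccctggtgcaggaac
The match began 99 bases before the start in Saa3, 241 in Slpi and 45 in C3. Cebpa and Cebpb encode C/EBP factors. Cebpa was at 347, 342 and 337 CPM in LysM-DKO and 1359.6 and 692 CPM in ABCG1KO, with a log2 fold change of -1.58 (SE 0.30, adjusted p 0.0129 by edgeR). Cebpb was at 40.8, 64.8 and 85.3 CPM in LysM-DKO and 346 and 130.3 CPM in ABCG1KO, with a log2 fold change of -1.90 (SE 0.43, adjusted p 0.0276 by edgeR). These values stand side by side, and no link between them was tested. Cebpa lost its call without ABCG1KO 1 (log2 fold change -1.03) and Cebpb without LysM-DKO 1 or 2 or ABCG1KO 1 (-1.94 to -1.05). Cebpa and Cebpb lost their calls with LysM-DKO 1 alone and with the sex-linked term.

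Among identity genes, the list of resident peritoneal macrophages gave 5 members called lower in LysM-DKO and 0 higher of 19 tested, with a median of -1.77. Adgre1, which encodes the pan-macrophage antigen F4/80, was at 425, 655 and 589 CPM in LysM-DKO and 1347 and 1451 CPM in ABCG1KO. Both ABCG1KO libraries lay close together and above every LysM-DKO library, with a log2 fold change of -1.33 (SE 0.24, adjusted p 0.0114 by edgeR). Thbs1, the matrix protein thrombospondin-1, was at 258, 425 and 886 CPM in LysM-DKO and 2314 and 2285 CPM in ABCG1KO, with a log2 fold change of -2.14 (SE 0.49, adjusted p 0.0282 by edgeR). Ltbp1, which binds latent transforming growth factor beta, was at 1.79, 14.6 and 20.3 CPM in LysM-DKO and 124 and 76.3 CPM in ABCG1KO, with a log2 fold change of -3.03 (SE 0.79, adjusted p 0.0435 by edgeR). LysM-DKO 1 was lowest and LysM-DKO 3 highest of the LysM-DKO libraries for both matrix genes.

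Itga6, a laminin-binding integrin subunit with 5.31% shared sequence, was at 60.4, 211 and 216 CPM in LysM-DKO and 741 and 496 CPM in ABCG1KO, with a log2 fold change of -1.93 (SE 0.52, adjusted p 0.0481 by edgeR), and Prg4 was described above. Gata6, the factor that defines large peritoneal macrophages, was at 1.99, 16.9 and 27.99 CPM in LysM-DKO and 28.7 and 32.6 CPM in ABCG1KO. The LysM-DKO libraries ran from the lowest value to just under ABCG1KO, and the log2 fold change of -0.97 (SE 0.84, adjusted p 0.472 by edgeR) was not past the threshold. Timd4, a receptor of long-lived resident macrophages, was at 0, 1.44 and 0.200 CPM in LysM-DKO and 37.4 and 11.9 CPM in ABCG1KO (edgeR adjusted p 0.0609), and Cd5l, a secreted lipid-binding protein of tissue macrophages, at 32.8, 189.6 and 29.6 CPM in LysM-DKO and 577 and 1029 CPM in ABCG1KO (edgeR adjusted p 0.0793), both without overlap. Thbs1 lost its call without LysM-DKO 2 or ABCG1KO 1 or 2 (log2 fold change -2.14 to -2.03), Ltbp1 without WT 1, 2 or 3, LysM-DKO 2 or ABCG1KO 1 or 2 (-3.33 to -2.66) and Itga6 without WT 1, 2 or 3, LysM-DKO 2 or 3 or ABCG1KO 1 or 2 (-2.19 to -1.63). Prg4 lost its call without ABCG1KO 1 (log2 fold change -5.22). Adgre1 kept its call in each of the 8 fits that left out 1 library. Of the resident list, 1 member was called without ABCG1KO 1 and 3 without WT 1 or 2, LysM-DKO 2 or ABCG1KO 2. For the resident list, 6 members were called with LysM-DKO 1 alone and 7 with the sex-linked term, and of the 5 called above Adgre1, Itga6, Ltbp1 and Thbs1 kept their calls in both.

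Monocyte and recruited-cell genes gave 6 members called lower and 1 higher of 20 tested, with a median of -1.79. Ccr2, the chemokine receptor of inflammatory monocytes, with 1.91% shared sequence, was at 2.54, 2.41 and 3.75 CPM in LysM-DKO and 127 and 40.2 CPM in ABCG1KO, with a log2 fold change of -4.85 (SE 0.67, adjusted p 0.00440 by edgeR). The LysM-DKO libraries were close together and far below ABCG1KO. Clec4e, the receptor mincle for mycobacterial glycolipid, was at 2.06, 21.9 and 24.6 CPM in LysM-DKO and 393 and 135 CPM in ABCG1KO, with a log2 fold change of -4.03 (SE 0.93, adjusted p 0.0312 by edgeR). Irf4, a factor of monocyte-derived cells, was at 0.897, 4.53 and 2.35 CPM in LysM-DKO and 13.1 and 14.2 CPM in ABCG1KO, with a log2 fold change of -2.39 (SE 0.63, adjusted p 0.0423 by edgeR).

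Ly6c2, the surface marker of classical monocytes, with 14.5% shared sequence, was called lower, had at most 3 counts in each LysM-DKO library and was at 11.3 and 1.06 CPM in ABCG1KO. Adgre4, at 0.0969, 0.414 and 0.825 CPM in LysM-DKO and 145 and 22.8 CPM in ABCG1KO, and Treml4, with a log2 fold change of -3.07 (SE 0.80, adjusted p 0.0401 by edgeR), were also lower. Napsa, an aspartic protease, was the member called higher, at 84.5, 47.4 and 64.95 CPM in LysM-DKO and 19.8 and 20.99 CPM in ABCG1KO, with a log2 fold change of 1.68 (SE 0.32, adjusted p 0.0137 by edgeR). Cx3cr1, the fractalkine receptor, spread widely in LysM-DKO, at 5.86, 67.03 and 27.9 CPM in LysM-DKO and 95.5 and 79.8 CPM in ABCG1KO, and was not called. Clec4e lost its call without WT 2, LysM-DKO 2 or 3 or ABCG1KO 1 (log2 fold change -4.46 to -3.07), Irf4 without WT 1 or 3, LysM-DKO 1 or 3 or ABCG1KO 1 or 2 (-2.47 to -2.01) and Treml4 without WT 1, 2 or 3, LysM-DKO 1 or 2 or ABCG1KO 1 or 2 (-3.10 to -2.64). Napsa lost its call without ABCG1KO 1 (log2 fold change 1.63). Ccr2 kept its call in each of the 8 fits that left out 1 library. Ly6c2 lost its call without any of the LysM-DKO libraries or without ABCG1KO 1. Of the monocyte list, 2 members were called without ABCG1KO 1 and 4 without LysM-DKO 1. For the monocyte list, 7 members were called with LysM-DKO 1 alone and 4 with the sex-linked term, and of the 7 called above Irf4, Napsa, Clec4e and Adgre4 kept their calls in both.

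Genes of the macrophage lineage moved in both directions. Of 27 members tested, 2 were called higher and 4 lower, and the median was 0.00. Csf1r, the receptor for the growth factor that sustains macrophages, was at 1085, 1233 and 1292 CPM in LysM-DKO and 3051 and 2655 CPM in ABCG1KO, with a log2 fold change of -1.25 (SE 0.25, adjusted p 0.0171 by edgeR). Csf3r, the granulocyte growth factor receptor with 10.7% shared sequence, had a log2 fold change of -1.90 (SE 0.27, adjusted p 0.00433 by edgeR). Cd68, a lysosomal glycoprotein of macrophages, went the other way, at 2569, 2075 and 2373 CPM in LysM-DKO and 917 and 1369 CPM in ABCG1KO, with a log2 fold change of 1.03 (SE 0.23, adjusted p 0.0242 by edgeR). So did Itgad, an integrin chain with 8.74% shared sequence, at 5.31, 3.68 and 8.15 CPM in LysM-DKO and 0.188 and 0 CPM in ABCG1KO, with a log2 fold change of 6.05 (SE 1.40, adjusted p 0.0312 by edgeR).

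The lineage factor Spi1, which encodes PU.1, was at 386, 338 and 356 CPM in LysM-DKO and 402 and 326 CPM in ABCG1KO. Its log2 fold change of -0.02 (SE 0.15, adjusted p 0.953 by edgeR) left the groups overlapping. Itgam, the integrin chain CD11b, was at 197, 411 and 695 CPM in LysM-DKO and 1588 and 1144 CPM in ABCG1KO without overlap (edgeR adjusted p 0.0556). The plot of activation and identity genes shows Csf1r, Cebpb and Cd68 of this list beside WT, and neither Spi1 nor Itgam. Csf1r lost its call without LysM-DKO 1 or ABCG1KO 1 (log2 fold change -1.20 to -1.15) and Cd68 without LysM-DKO 1 or ABCG1KO 1 (0.76 to 0.94). Csf3r kept its call in each of the 8 fits that left out 1 library. Itgad lost its call without any of the LysM-DKO or ABCG1KO libraries. Of the macrophage lineage list, 1 member was called without ABCG1KO 1 and 2 without LysM-DKO 1. For the macrophage lineage list, 1 member was called with LysM-DKO 1 alone and 1 with the sex-linked term, and none of the 6 called above kept its call in both.

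**Figure D4:**
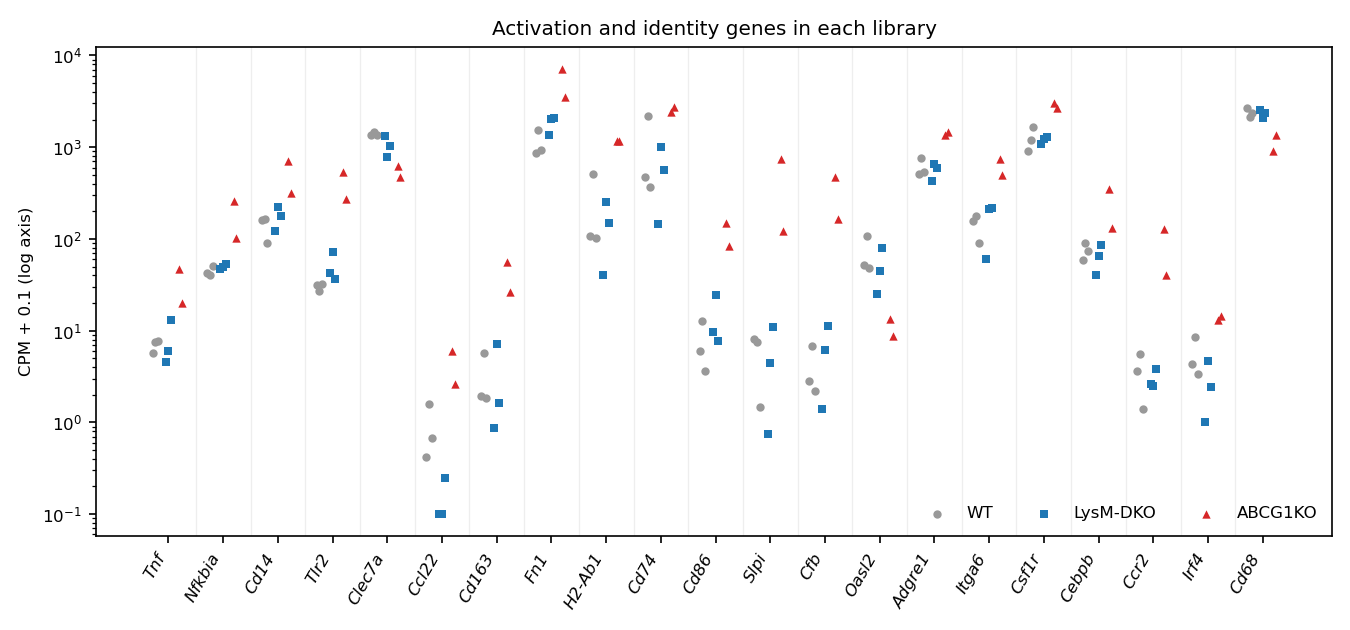
CPM + 0.1 on a log axis in each library for 21 activation and identity genes, with WT (grey circles), LysM-DKO (blue squares) and ABCG1KO (red triangles), each symbol 1 library. Clec7a, Oasl2 and Cd68 have both triangles below the squares, and the other 18 genes have both triangles above them. Only genes whose groups do not overlap are shown, so the separation comes from the choice of genes. Spi1, Mrc1, Ciita, Cd80, Ccl2, Ptgs2 and C3, which overlapped, are not shown. Over all genes, 25.6% did not overlap with LysM-DKO higher and 22.6% with LysM-DKO lower.

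Cell cycle genes gave 1 member called lower and 0 higher of 25 tested, a share below the 5.64% of all genes. Of the 25, 6 did not overlap with LysM-DKO lower, near the 22.6% of all genes, 19 had a log2 fold change below 0, and the median was -1.25. The called member was Cdc20, the activator of the anaphase complex, with 10.4% shared sequence. Cdc20 was at 2.47, 2.46 and 4.25 CPM in LysM-DKO and 6.08 and 24.5 CPM in ABCG1KO, with a log2 fold change of -2.32 (SE 0.61, adjusted p 0.0427 by edgeR). Mki67, the proliferation antigen Ki-67, was at 5.91, 12.7 and 19.8 CPM in LysM-DKO and 32.9 and 59.3 CPM in ABCG1KO without overlap (edgeR adjusted p 0.0806), and Top2a, a topoisomerase of dividing cells, at 5.28, 11.1 and 24.4 CPM in LysM-DKO and 16.7 and 48.1 CPM in ABCG1KO. In Mki67 and Top2a, ABCG1KO 2 was above ABCG1KO 1, the reverse of the order in the acute-phase genes. Cdc20 lost its call without WT 1 or 2, LysM-DKO 1, 2 or 3 or ABCG1KO 2 (log2 fold change -2.63 to -0.99). Of the cell cycle list, 0 members were called without WT 1 or 2 or LysM-DKO 1, 2 or 3. For the cell cycle list, 0 members were called with LysM-DKO 1 alone and 0 with the sex-linked term, and the member called in all libraries did not keep its call in both.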

How the data were processed

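RNA-seq of 8 mouse macrophage libraries was used, 3 WT, 3 LysM-DKO and 2 ABCG1KO. The authors deposited 1 raw count per gene symbol (24421 symbols) and library, in the layout of htseq-count. The submitters' processing notes name mm10, STAR 2.7.9a, TopHat, HTSeq 0.11.2, DESeq2 1.30.1 and limma without their roles; the annotation and strand setting are not given in the sources used here, so reads of a gene and an overlapping antisense gene may not be separated. Per the labels' protocols, RNA was taken with a column kit from primary macrophages. The 5 lines for reads given to no gene were left out, and their shares are given with the libraries.

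Counts were fitted over all 8 libraries with edgeR 4.0.16 (R 4.3.3; filterByExpr, TMM, robust quasi-likelihood), which was tested on simulated data. An adjusted p that misses the threshold does not show that levels did not differ. Named genes were Abcg1, Lyz2 and the epsins, the 12 largest rises and falls among called genes without overlap, with a mean of at least 10 CPM and under 1% shared sequence, and members of the lists, starting with the called ones; some members are not reported here. Genes starting with Rpl or Rps, Rpsa and Gapdh were left out of rankings. Members and lists were chosen with earlier results of these data known. Genes with at most 3 counts in every library of a group are given as levels. Shared sequence was computed on GENCODE M21 transcripts (GRCm38), and gene positions are from that annotation.

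Alternatives were RLE size factors, library size only, TMM without ribosomal genes, other count filters, only the 5 libraries, a replicate block, a term for the sex-linked pattern, only genes with under 1% shared sequence, DESeq2 1.42.0 and leaving out each library. A fit with LysM-DKO 1 as the only LysM-DKO library was added after seeing the data. The 9 motifs searched, on both strands and allowing overlaps, were TCACNCCAC for SREBP factors, GGGANTTTC for NF-kB, GAAANNGAA for the interferon response element, TTGCNNAA for C/EBP factors, CCAAT for NF-Y, AGATAA for GATA factors, GAGGAAGT for PU.1, TGANTCA for AP-1 and GTCACGTG for TFE factors. The promoters shown were chosen after the counts of matches were seen.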

Additional observations from a re-analysis of the deposited data

Results flagged for a closer look

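Both ABCG1KO libraries stood out in reads assigned to no gene, which no comparison above uses. Multi-mapped reads were 6.93% of all counted reads in ABCG1KO 1 and 6.74% in ABCG1KO 2, against 2.65% to 3.01% in LysM-DKO and 2.83% to 3.00% in WT. Reads outside annotated genes made up 13.8% in ABCG1KO 1 and 10.2% in ABCG1KO 2, against 4.33% to 6.07% in LysM-DKO and 4.26% to 5.88% in WT. Whether these libraries were aligned and counted with the same settings as the others is not given in the sources used here. Their part in the gene-level results was not tested.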

How the results depend on the processing

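The 97 genes followed over the 19 fits were Abcg1, Lyz2, Epn1, Epn2, the ranked genes and the called list members. Members named above without a call were not followed, and called genes were chosen for passing the test, so a kept sign says little. Only Epn1, near 0 in the main comparison, changed sign in any of these fits: its log2 fold change was -0.0272 with RLE size factors, -0.0250 with DESeq2, -0.0816 with library size only, -0.0176 with at least 10 counts in each library, -0.00539 with only the 5 libraries and -0.104 to 0.107 without each library in turn (-0.0221 without WT 2, -0.0238 without LysM-DKO 1, -0.0811 without LysM-DKO 2 and -0.104 without ABCG1KO 2). Of 95 called named genes, 17 were called in every fit that tested them, and the calls lost numbered 69 without ABCG1KO 1, 33 without LysM-DKO 1, 34 without LysM-DKO 2 and 30 without LysM-DKO 3. Over the fits that left out each library, called genes numbered 561 to 1960, 392 to 1086 higher and 169 to 874 lower. Called list members in those fits numbered 1 to 4 for cholesterol export, 0 to 5 for cholesterol release, 0 to 7 for sterol synthesis, 0 to 3 for uptake, 2 to 8 for fatty acid synthesis, 1 to 4 for fatty acid oxidation, 0 to 5 for eicosanoids, 1 to 8 for foam cells, 3 to 8 for inflammatory effectors, 2 to 6 for alternative activation, 0 to 3 for interferon, 0 to 5 for antigen presentation, 1 to 7 for acute-phase genes, 1 to 6 for resident genes, 2 to 6 for monocyte genes, 1 to 8 for macrophage lineage and 0 to 1 for cell cycle. DESeq2 called 2947 genes, 1614 higher and 1333 lower, with 10 members for antigen presentation, 7 for cell cycle, 5 for cholesterol release, 10 for foam cells, 7 for interferon, 11 for monocyte and 8 for resident genes. With LysM-DKO 1 as the only LysM-DKO library, 559 genes were called, 380 higher and 179 lower, with 2 members for acute-phase genes, 3 for alternative activation, 0 for cell cycle, 1 for cholesterol export, 0 for cholesterol release, 2 for fatty acid oxidation, 2 for fatty acid synthesis, 3 for foam cells, 3 for inflammatory effectors, 0 for interferon, 1 for macrophage lineage and 1 for sterol synthesis. The term for the sex-linked pattern gave 719, 499 higher and 220 lower, with 3 members for alternative activation, 0 for cell cycle, 1 for cholesterol export, 0 for cholesterol release, 2 for fatty acid oxidation, 3 for fatty acid synthesis, 2 for inflammatory effectors, 0 for interferon, 1 for macrophage lineage, 4 for monocyte genes and 0 for sterol synthesis. The fit of genes with under 1% shared sequence, which tests fewer genes, gave 948, 516 higher and 432 lower, with 4 members for alternative activation, 0 for cell cycle, 3 for eicosanoids, 1 for fatty acid oxidation, 4 for fatty acid synthesis, 3 for foam cells, 3 for inflammatory effectors, 1 for interferon, 1 for uptake, 3 for monocyte genes, 3 for resident genes and 3 for sterol synthesis. Only the 5 libraries, fewer samples, gave 948, 557 higher and 391 lower, with 3 members for alternative activation, 2 for antigen presentation, 0 for cell cycle, 2 for cholesterol export, 0 for cholesterol release, 2 for eicosanoids, 1 for fatty acid oxidation, 3 for fatty acid synthesis, 1 for interferon, 0 for uptake, 4 for monocyte and 3 for resident genes. At least 10 counts in each library gave 3 members for alternative activation, 1 for uptake and 4 for monocyte genes, no filter gave 1 for uptake and 3 for resident genes, and library size only gave 0 for interferon. Where no construction of the fit is named, the cause was not tested.

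Replicate numbers are shared between groups, and whether they pair the libraries is not stated. Deviations of same-numbered libraries correlated at 0.041, 0.426 and -0.014 between WT and LysM-DKO 1, 2 and 3. Different-numbered libraries of these groups ran from -0.292 (WT 2 with LysM-DKO 1) to 0.225 (WT 3 with LysM-DKO 1). Same-numbered LysM-DKO and ABCG1KO 1 and 2 correlated at 0.197 and -0.092. With 2 ABCG1KO libraries the deviations mirror each other, so these values cannot show pairing or its absence. The main fit used no pairing. With the replicate block, 1024 genes were called, 645 higher and 379 lower, with 3 members for acute-phase genes, 2 for alternative activation, 1 for cholesterol export, 1 for cholesterol release, 2 for eicosanoids, 3 for fatty acid synthesis, 0 for interferon, 0 for uptake, 4 for monocyte, 3 for resident and 3 for sterol synthesis genes.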

Other observations

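Ribosomal protein genes and Gapdh were kept out of the rankings. Gapdh, a glycolytic enzyme often used as a reference, was at 840.3, 1164 and 1213 CPM in LysM-DKO and 4.99 and 2.05 CPM in ABCG1KO with 24.7% shared sequence, and Rpl23a, of the large ribosomal subunit, at 227, 208 and 225 CPM in LysM-DKO and 0.690 and 0 CPM in ABCG1KO with 50.1% shared sequence. Of the 7872 genes with no shared sequence, 11.2% were called, with LysM-DKO higher in 414 and lower in 470. Of the 852 genes with 5% to 20%, a range that holds Fdps, Idi1, Hadhb, Cd63 and Fabp5, 26.1% were called, 177 higher and 45 lower, with a median log2 fold change of 0.19. Of the 365 genes with 20% to 50% shared sequence, 41.4% were called, 137 higher and 14 lower, with a median log2 fold change of 0.83. Of the 143 genes with 50% or more, 44.8% were called, 45 higher and 19 lower.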
